A study of Mus musculus with 13 samples.

Results

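Sarcoplasmic reticulum calcium handling was followed through 10 genes in single-cell RNA-seq of mouse embryos and hearts: Ryr2, Trdn, Jph2, Casq1, Casq2, Hrc, Atp2a2, Pln, Sln and Slc8a1. The genes were chosen by symbol for their role in the calcium cycle, not for any measured value, and they were 10 of the 27998 genes in the deposited count matrices. All animals were wild-type C57Bl/6J mice. The E8.5 and E10.5 samples were whole embryos without head and limbs, and the later samples, of embryonic days E12.5, E14.5 and E16.5 and of P3 (day 3 after birth), were dissected hearts. The labels list 13 samples, of which E8.5 replicate 1 was not analysed here, and the others correspond to 10 matrices: 1 at E8.5 (replicate 2), 2 at each of E10.5, E12.5, E14.5 and E16.5, and 1 (P3). The P3 matrix holds 2 wells, told apart by a suffix of the cell barcodes, that the files do not tie to a sample. By eye, the paper found significant differences between batches at P3 alone. The matrix called E16.5 replicate 1 covers a pair of sample records. The genes were described in barcodes (droplets) with at least 2000 UMIs (unique molecular identifiers, which count captured RNA molecules), at least 1% of UMIs from mitochondrial genes, and at least 1500 CPM (UMIs of the gene per 1000000 UMIs) of the cardiac troponin T gene Tnnt2, or 500 CPM at E8.5 and E10.5. These are called cardiomyocyte barcodes below.

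In each heartbeat, calcium that enters a cardiomyocyte through the surface membrane opens the ryanodine receptor RYR2, and the sarcoplasmic reticulum (SR) releases its stored calcium onto the contractile filaments. The pump SERCA2, encoded by Atp2a2, then returns calcium to the SR under the brake of the small membrane proteins phospholamban (Pln) and sarcolipin (Sln), while the sodium-calcium exchanger NCX1 (Slc8a1) carries the rest out of the cell. Inside the SR, calsequestrin buffers calcium, triadin (Trdn) links it to the release channel, and the histidine-rich calcium-binding protein (Hrc) binds calcium too. Junctophilin 2 (Jph2) holds the SR close to the surface membrane. CASQ2 is the calsequestrin of the adult heart, and CASQ1 that of fast skeletal muscle.

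The genes lie on 9 mouse chromosomes (mm10/GRCm38, GENCODE annotation). Casq1 is at chr1:172209894-172219868 on the minus strand, Jph2 at chr2:163336242-163397993 (minus), Casq2 at chr3:102086415-102146514 (plus), Atp2a2 at chr5:122453513-122502225 (minus) and Hrc at chr7:45335290-45338974 (plus). Sln is at chr9:53850164-53854560 (plus), Trdn at chr10:33080554-33476709 (plus), Pln at chr10:53337667-53345987 (plus), Ryr2 at chr13:11553102-12106945 (minus) and Slc8a1 at chr17:81373105-81738377 (minus). Pln overlaps Cep85l on the other strand, and Casq1 and Slc8a1 each overlap a predicted gene on the other strand. The promoters of Casq1, Casq2, Pln and Ryr2 are shown because the results below turn on the exchange of Casq1 for Casq2, on the chamber pattern of Pln and on the postnatal level of Ryr2. Each is 300 bases, from 250 before to 50 after the RefSeq transcript start (GRCm38.p6), read 5′ to 3′ on the strand of the gene, with matches to the searched motifs in capitals. They lie at chr1:172219846-172220145 (Casq1, minus), chr3:102086165-102086464 (Casq2, plus), chr10:53337436-53337735 (Pln, plus) and chr13:12106896-12107195 (Ryr2, minus).
Casq1: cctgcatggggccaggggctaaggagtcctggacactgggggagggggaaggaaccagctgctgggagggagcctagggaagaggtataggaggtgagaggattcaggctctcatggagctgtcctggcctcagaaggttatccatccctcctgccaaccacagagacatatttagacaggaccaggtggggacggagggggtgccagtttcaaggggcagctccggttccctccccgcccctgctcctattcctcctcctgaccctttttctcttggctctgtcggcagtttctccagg
Casq2: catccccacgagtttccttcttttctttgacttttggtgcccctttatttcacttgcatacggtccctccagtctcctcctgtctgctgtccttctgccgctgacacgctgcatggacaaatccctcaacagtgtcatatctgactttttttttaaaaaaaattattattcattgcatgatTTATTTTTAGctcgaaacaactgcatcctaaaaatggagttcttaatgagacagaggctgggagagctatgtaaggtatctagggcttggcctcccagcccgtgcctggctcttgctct
Pln: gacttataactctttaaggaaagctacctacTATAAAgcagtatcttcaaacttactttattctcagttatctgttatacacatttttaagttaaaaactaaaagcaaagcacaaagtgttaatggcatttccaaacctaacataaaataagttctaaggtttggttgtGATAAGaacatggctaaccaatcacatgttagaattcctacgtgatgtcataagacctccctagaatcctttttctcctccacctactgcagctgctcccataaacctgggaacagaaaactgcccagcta
Ryr2: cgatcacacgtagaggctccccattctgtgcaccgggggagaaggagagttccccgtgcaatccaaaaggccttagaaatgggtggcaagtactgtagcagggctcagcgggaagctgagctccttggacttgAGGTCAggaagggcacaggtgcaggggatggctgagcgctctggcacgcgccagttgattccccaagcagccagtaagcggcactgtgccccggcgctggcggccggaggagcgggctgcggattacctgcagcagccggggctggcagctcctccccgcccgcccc
Searched on both strands were the MEF2 and CArG motifs by name, TNAAGTG for the NKX2-5 motif, GATAAG for the GATA motif, GGAATG for the TEAD motif, AGGTCA for the nuclear receptor half-site and TATAAA for the TATA box. The Casq2 window holds a MEF2 match that begins at position -69 from the start and reads TTATTTTTAG, a motif found in 3.19% of all 32851 promoter windows. The Pln window holds TATAAA at -219 (13.6% of windows) and GATAAG at -81 (7.44% of windows), and the Ryr2 window holds AGGTCA at -117 (16.3% of windows). The Casq1 window holds none of the 7 motifs, of which CArG, TNAAGTG and GGAATG occur in 1.63%, 11.5% and 14.7% of windows. A match describes letters only, and 7 of the 10 genes had a promoter in the table.

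The rule gave 151 cardiomyocyte barcodes at E8.5, 191 and 201 in E10.5 replicates 1 and 2, 1733 and 2311 (E12.5), 2836 and 2390 (E14.5), 3607 and 3482 (E16.5), and 7145 (P3). Matrices held 67141166 to 259041468 UMIs, and the sums over all cardiomyocyte barcodes of a matrix held 3040119 to 112164086 UMIs. The barcodes carried marker genes of cardiomyocytes. Troponin I (Tnni3) lay at 677 to 5299 CPM in them and at 1.39 to 164 CPM in barcodes with low Tnnt2. Cardiac actin (Actc1) lay at 5471 to 12215 against 14.9 to 363 CPM. These sums do not show that every barcode was a cardiomyocyte. At most 38 cell barcodes of this class were shared between any pair of matrices. The median mitochondrial share of their UMIs was 2.45% at E8.5 and 22.01% at P3. The P3 median lay above the study's upper limit for that stage, 20%, so most P3 barcodes here exceeded it. No P3 level under that limit is given below. In P3 wells 1 and 2 the median depth was 19007 and 10398 UMIs. Throughout, pairs of values are given in the order replicate 1, replicate 2, and tests compare UMI sums over libraries with edgeR's quasi-likelihood test, with p-values adjusted over all genes tested. Nothing states that libraries of a stage came from separate animals, so p-values measure only the spread between these libraries.

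The whole-embryo samples also held barcodes with genes of developing skeletal muscle, which expresses Tnnt2 too, and some of these pass the Tnnt2 threshold. At E10.5, 26 of 191 and 23 of 201 cardiomyocyte barcodes had a UMI of at least 3 of 7 skeletal muscle markers. Myog, a regulator of skeletal muscle differentiation, belongs to these 7 markers. It lay at 845 and 1074 CPM in these barcodes, against 4.36 and 1.84 CPM in the remaining ones. The selection itself favours this gap, so it is no separate check of what these barcodes are. These barcodes held 215 of the 222 and 308 of the 344 Sln UMIs, and 20 of the 24 and 17 of the 19 Casq2 UMIs, of their libraries. Sln was at 71.1 and 113 CPM with them and at 2.54 and 13.2 CPM without them, and Casq2 was at 7.69 and 6.25 CPM with them and at 1.45 and 0.735 CPM without them. Of the 36 Sln UMIs that remained in replicate 2, 30 came from 1 barcode with 2 skeletal markers and 1 Myl7 UMI. The E8.5 library had 2 such barcodes, each E12.5 library had 3 and later libraries had 0. Levels at E10.5 below include these barcodes unless stated. Without them Ryr2 was at 113 and 111 CPM, Jph2 at 76.3 and 77.2 CPM and Casq1 at 134 and 126 CPM. Atp2a2 was at 585 and 501 CPM without them, Pln at 242 and 335 CPM and Slc8a1 at 13.1 and 22.4 CPM. Trdn was at 40.4 and 46.7 CPM and Hrc at 14.2 and 18.4 CPM. Leaving them out thus raised the E10.5 level of the first 6 of these genes in both libraries.

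Of the 10 genes, 8 rose between E10.5 and E12.5 by the rule as given and 1 fell, where 23.0% of 14810 tested genes rose and 19.9% fell, or 43.0% called in either direction. Without the skeletal barcodes 7 rose and 0 fell, with 40.5% of genes called in either direction. With Tnnt2 of at least 3000 CPM at every stage, 3 rose (Pln, Casq2 and Trdn) and 0 fell, with 8.93% of genes called. The differences of Atp2a2, Jph2 and Hrc were then 0.13 ± 0.11, 0.38 ± 0.19 and 0.89 ± 0.29 on the log2 scale (edgeR adjusted p = 0.55, 0.27 and 0.058), and those of Ryr2 and Casq1 turned to -0.13 ± 0.19 and -0.32 ± 0.16 (edgeR adjusted p = 0.74 and 0.26). From E12.5 to E14.5, 5 of the genes rose and 2 fell, beside 18.0% and 15.6% of all genes (33.6% in either direction). From E14.5 to E16.5, 8 rose and 1 fell, beside 19.6% and 18.9% of all genes (38.5% in either direction). At each step the share of members called lay above that of all genes. The E10.5 to E12.5 step also changed from whole embryo to heart and from a Tnnt2 threshold of 500 to 1500 CPM, and stage and tissue cannot be told apart there.

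**Figure D1:**
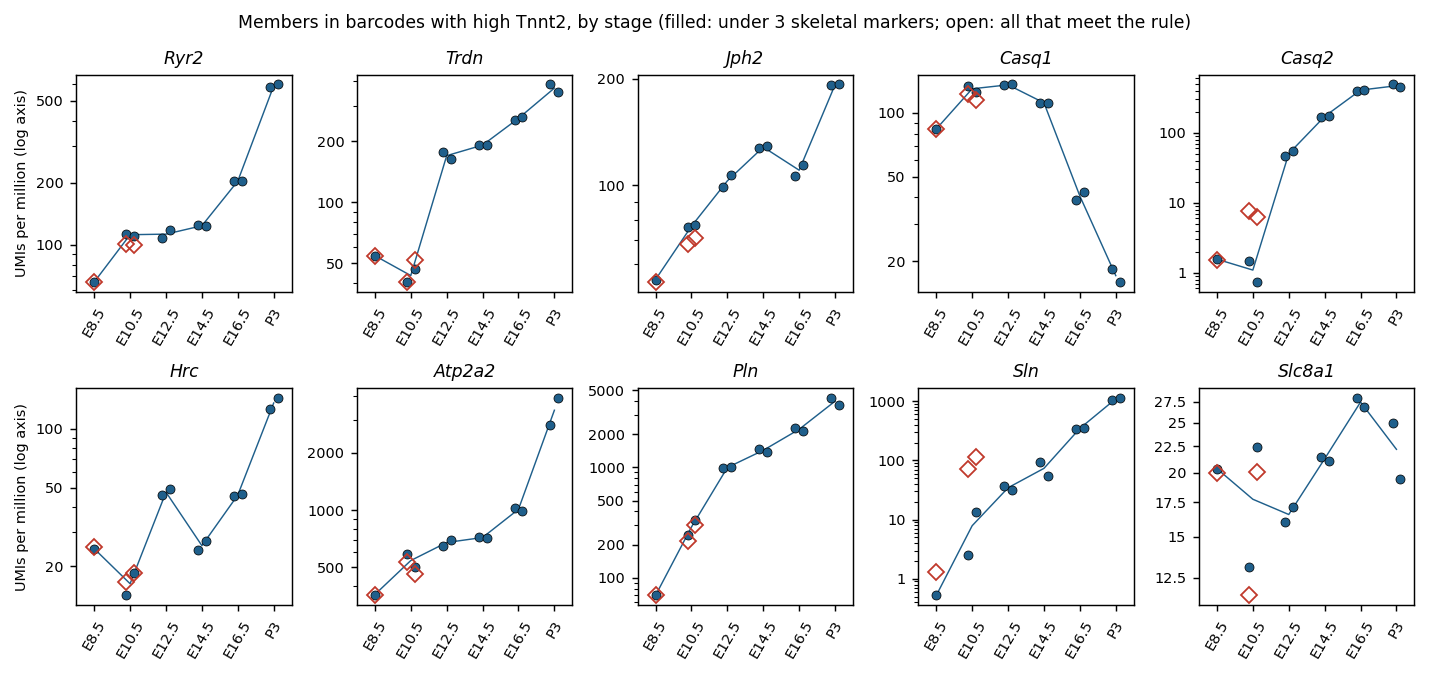
Level of each gene in cardiomyocyte barcodes, in CPM on a log axis, by stage. Filled points are libraries (wells at P3) with, at E8.5 and E10.5, barcodes of at least 3 skeletal markers left out, open diamonds are the same early libraries with those barcodes, and lines join stage means. Casq1 falls to 17.6 CPM at P3 while Casq2 climbs to 479 CPM, and Sln and Casq2 at E10.5 drop when the skeletal barcodes are left out.

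The release channel gene Ryr2 stood at 65.7 CPM (E8.5; 95% exact Poisson interval 57.9 to 74.2, counting error only), 101 and 99.0 (E10.5), 108 and 117 (E12.5), 124 and 122 (E14.5), 203 and 204 (E16.5), and 586 CPM (P3). The values of E16.5 lay clear above those of E14.5, and P3 lay clear above E16.5, with 580 and 599 CPM in its wells. Ryr2 rose by 0.92 ± 0.07 (SE) on the log2 scale from E14.5 to E16.5 (edgeR adjusted p = 7.1e-09), and its change of 0.14 ± 0.07 from E12.5 to E14.5 did not pass the test (edgeR adjusted p = 0.11) but passed with the study's mitochondrial ceilings, its upper limits on the mitochondrial share of each stage (0.21 ± 0.07, edgeR adjusted p = 0.028) and with no mitochondrial minimum (0.20 ± 0.07, edgeR adjusted p = 0.028). The difference of 0.28 ± 0.08 from E10.5 to E12.5 passed the test (edgeR adjusted p = 0.0084) but fell to 0.14 ± 0.08 without the skeletal barcodes (edgeR adjusted p = 0.19). That call was also lost with no mitochondrial minimum, without the 5% of barcodes with the most UMIs and with each barcode thinned to 2000 UMIs at random (edgeR adjusted p = 0.067, 0.065 and 0.73). The P3 level was 2.88 times the E16.5 mean, with a range of 2.85 to 2.95 over wells and libraries. P3 is 1 matrix and entered no test. With mitochondrial genes left out of the totals the ratio was 3.23.

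Trdn, which anchors calsequestrin to the release channel, measured 54.6 CPM at E8.5, 40.4 and 52.0 (E10.5), 177 and 164 (E12.5), 191 and 192 (E14.5), 256 and 265 (E16.5), and 374 CPM (P3). Its largest step was from the E10.5 embryos to the E12.5 hearts, whose values did not overlap. That step was 2.00 ± 0.11 on the log2 scale (edgeR adjusted p = 1.4e-10) and 2.099 without the skeletal barcodes. Trdn rose again by 0.64 ± 0.08 from E14.5 to E16.5 (edgeR adjusted p = 6.6e-06), after a difference of 0.18 ± 0.08 from E12.5 to E14.5 that did not pass (edgeR adjusted p = 0.10). The latter passed with the study's mitochondrial ceilings (0.33 ± 0.08, edgeR adjusted p = 0.0042) and without E12.5 replicate 1 (0.25 ± 0.08, edgeR adjusted p = 0.027).

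Jph2, the tether between SR and surface membrane, stood at 53.3 CPM (E8.5), 68.6 and 71.0 (E10.5), 99.0 and 107 (E12.5), 127 and 129 (E14.5), 106 and 114 (E16.5), and 192 CPM (P3). Jph2 was higher at E12.5 than at E10.5 by 0.67 ± 0.09 (edgeR adjusted p = 5.0e-06), or 0.56 ± 0.09 without the skeletal barcodes, and higher at E14.5 than at E12.5 by 0.32 ± 0.07 (edgeR adjusted p = 0.0012). At E16.5 its CPM lay below both E14.5 libraries, but after TMM scaling the difference was -0.02 ± 0.07 on the log2 scale (edgeR adjusted p = 0.87). P3 was 1.74 times the E16.5 mean (1.68 to 1.81 over wells and libraries).

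From E12.5 on, the calsequestrins moved in opposite directions. Casq1 stood at 83.6 CPM (E8.5), 123 and 115 (E10.5), 135 and 136 (E12.5), 112 and 112 (E14.5), 38.9 and 42.2 (E16.5), and 17.6 CPM (P3). Casq1 was highest around E12.5 and lowest at P3, and neither the E16.5 nor the P3 values reached those of an earlier stage. It fell by 0.28 ± 0.07 on the log2 scale from E12.5 to E14.5 (edgeR adjusted p = 0.0038) and by 1.26 ± 0.07 from E14.5 to E16.5 (edgeR adjusted p = 1.7e-10). It was higher at E12.5 than at E10.5 by 0.30 ± 0.08 (edgeR adjusted p = 0.0043), and by 0.19 ± 0.08 without the skeletal barcodes (edgeR adjusted p = 0.062) and -0.093 ± 0.16 with thinning (edgeR adjusted p = 0.76). The call from E12.5 to E14.5 was lost when E14.5 replicate 1 was left out (-0.28 ± 0.10, edgeR adjusted p = 0.059).

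Casq2 stood at 1.54 CPM (E8.5), from 6 UMIs, and at 7.69 and 6.25 CPM (E10.5), nearly all of it in the skeletal barcodes. In hearts it stood at 46.3 and 54.3 CPM (E12.5), 167 and 176 (E14.5), 401 and 413 (E16.5), and 479 (P3). Each heart stage lay clear above the one before it. Casq2 rose by 1.77 ± 0.08 on the log2 scale from E12.5 to E14.5 (edgeR adjusted p = 2.8e-11) and by 1.45 ± 0.08 from E14.5 to E16.5 (edgeR adjusted p = 9.1e-11). From E10.5 to E12.5 the rise was 2.96 ± 0.16 with the skeletal barcodes and 5.64 ± 0.26 without them. The P3 level of Casq2 was 1.18 times the E16.5 mean (1.09 to 1.22 over wells and libraries).

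Casq2 made up 1.83% of the summed Casq1 and Casq2 UMIs at E8.5, and 1.07% and 0.580% (E10.5), without the skeletal barcodes. The share was 25.5% and 28.5% (E12.5), 59.9% and 61.1% (E14.5), 91.1% and 90.7% (E16.5), and 96.5% (P3). The share rose at each step from E10.5 on. It sets UMIs of different genes side by side, so it carries any difference in capture between them and is read only across stages. Shares of barcodes followed the same course: with each barcode thinned to 2000 UMIs, Casq1 was found in 19.8% and 19.4% of E12.5 and in 2.58% of P3 cardiomyocyte barcodes, while Casq2 was found in 7.16% and 8.87% and in 58.3%. In thinned barcodes with low Tnnt2 these shares were 1.34% and 1.13% (E12.5) and 0.223% (P3) for Casq1, and 0.384%, 0.488% and 3.75% for Casq2.

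Hrc, a calcium-binding protein of the SR lumen, dipped at E14.5. It stood at 25.1 CPM (E8.5), 16.7 and 18.4 (E10.5), 45.9 and 49.2 (E12.5), 24.1 and 26.8 (E14.5), 45.6 and 46.4 (E16.5), and 131 (P3). Both E14.5 values lay below every E12.5 and E16.5 value. Hrc rose by 1.55 ± 0.12 on the log2 scale from E10.5 to E12.5 (edgeR adjusted p = 1.6e-08; 1.68 ± 0.14 without the skeletal barcodes), fell by 0.90 ± 0.07 to E14.5 (edgeR adjusted p = 2.8e-08) and rose by 1.06 ± 0.07 to E16.5 (edgeR adjusted p = 1.9e-09). The dip is carried by both E14.5 libraries, and these 2 libraries are the sole source of that stage. At P3 Hrc was 2.86 times the E16.5 mean (2.73 to 3.16).

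The SERCA2 gene Atp2a2 stood at 356 CPM (E8.5), 536 and 461 (E10.5), 652 and 700 (E12.5), 720 and 716 (E14.5), 1030 and 992 (E16.5), and 3117 CPM (P3). Its values at E12.5 and E14.5 lay close together, and E16.5 and P3 each lay clear above. Atp2a2 rose by 0.55 ± 0.08 on the log2 scale from E10.5 to E12.5 (edgeR adjusted p = 2.6e-05; 0.45 ± 0.08 without the skeletal barcodes) and by 0.69 ± 0.08 from E14.5 to E16.5 (edgeR adjusted p = 1.8e-06), with 0.10 ± 0.08 in between (edgeR adjusted p = 0.38), which passed with the study's mitochondrial ceilings (0.22 ± 0.08, edgeR adjusted p = 0.040). P3 was 3.08 times the E16.5 mean, but the wells differed, at 2807 and 3907 CPM, for a range of 2.72 to 3.94.

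Pln, the phospholamban gene, stood at 69.2 CPM (E8.5), 216 and 300 (E10.5), 994 and 1001 (E12.5), 1463 and 1393 (E14.5), 2272 and 2157 (E16.5), and 4107 (P3). No stage overlapped the next. Pln rose by 2.06 ± 0.12, 0.52 ± 0.10 and 0.83 ± 0.11 on the log2 scale over the 3 tested steps (edgeR adjusted p = 1.5e-10, 0.00093 and 6.0e-06), the first being 1.92 ± 0.12 without the skeletal barcodes. At P3 it was 1.85 times the E16.5 mean (1.62 to 1.98). The P3 level was 59.3 times that of E8.5 for Pln and 8.76 times for Atp2a2.

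Sln, the sarcolipin gene, stood at 1.28 CPM (E8.5) from 5 UMIs, 3 of them in skeletal barcodes. In hearts it stood at 36.8 and 32.3 CPM (E12.5), 93.1 and 54.0 (E14.5), 340 and 356 (E16.5), and 1079 (P3). The E14.5 libraries differed more for Sln than for any other member, yet both lay above E12.5 and below E16.5. Atrial-like barcodes, defined below, held most of the Sln UMIs, and they were 246 of 1733 and 296 of 2311 cardiomyocyte barcodes (E12.5), 233 of 2836 and 150 of 2390 (E14.5), 280 of 3607 and 284 of 3482 (E16.5), and 1198 of 7145 (P3). P3 was 3.101 times the E16.5 mean over all cardiomyocyte barcodes and 1.499 times over atrial-like ones. Sln rose by 1.10 ± 0.18 on the log2 scale from E12.5 to E14.5 (edgeR adjusted p = 0.00014), or 0.65 without E14.5 replicate 1, and by 2.44 ± 0.18 from E14.5 to E16.5 (edgeR adjusted p = 7.9e-09). The E10.5 to E12.5 step turned its sign with the skeletal barcodes: -1.30 ± 0.22 with them (edgeR adjusted p = 0.00010) and 2.22 ± 0.42 without them (edgeR adjusted p = 0.00038).

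The exchanger gene Slc8a1 gave few UMIs and moved within a narrow band. It stood at 20.004 CPM (E8.5), 11.5 and 20.1 (E10.5), 16.04 and 17.1 (E12.5), 21.5 and 21.1 (E14.5), 28.0 and 26.9 (E16.5), and 23.4 CPM (P3). The E10.5 libraries enclosed both E12.5 values, while the heart stages before birth did not overlap. Slc8a1 rose by 0.37 ± 0.09 on the log2 scale from E12.5 to E14.5 (edgeR adjusted p = 0.0034) and by 0.57 ± 0.08 to E16.5 (edgeR adjusted p = 2.9e-05). With Tnnt2 of at least 3000 CPM the first difference was only 0.098 on the log2 scale. In that setting 4 members were called higher from E12.5 to E14.5, against 5 by the rule. Slc8a1 was 1 of only 2 members with P3 below E16.5, at 0.853 times the E16.5 mean (0.694 to 0.929), the other being Casq1 at 0.434. With mitochondrial genes left out the P3 ratio of Slc8a1 was 0.957.

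Atrial-like and ventricular-like barcodes were told apart at E12.5 and later by the ratio of the myosin light chain genes Myl2 and Myl7, neither of which is a member. The cut was set at -3 on the log2 scale after the marker levels were seen, and 1.58% to 6.92% of barcodes of these embryonic libraries lay within 2 units of it. It gave 246 and 296 atrial-like barcodes at E12.5, 233 and 150 (E14.5), 280 and 284 (E16.5), and 1198 (P3), beside 1487 to 3327 ventricular-like barcodes in the embryonic libraries and 5947 at P3. Markers outside the cut followed it. The atrial transcription factor gene Nr2f1 lay at 47.1 to 274 CPM in atrial-like and at 0.894 to 4.61 CPM in ventricular-like barcodes, and the ventricular Irx4 at 0.508 to 1.63 against 36.7 to 56.5 CPM. Atrial-like barcodes were called higher for 6 members and lower for 3 at E12.5, beside 14.7% of 13683 genes higher and 17.2% lower, or 32.0% in either direction. For E14.5 the members were 6 higher and 2 lower, beside 15.7% and 16.3% of all genes (32.0% in either direction). For E16.5 they were 3 higher and 2 lower, beside 16.2% and 16.1% of all genes (32.3% in either direction). With barcodes thinned to 2000 UMIs the calls of Slc8a1, Trdn, Hrc and Jph2 at E12.5, of Ryr2, Casq2, Trdn and Jph2 at E14.5 and of Trdn at E16.5 were lost (edgeR adjusted p = 0.18 to 0.98).

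**Figure D2:**
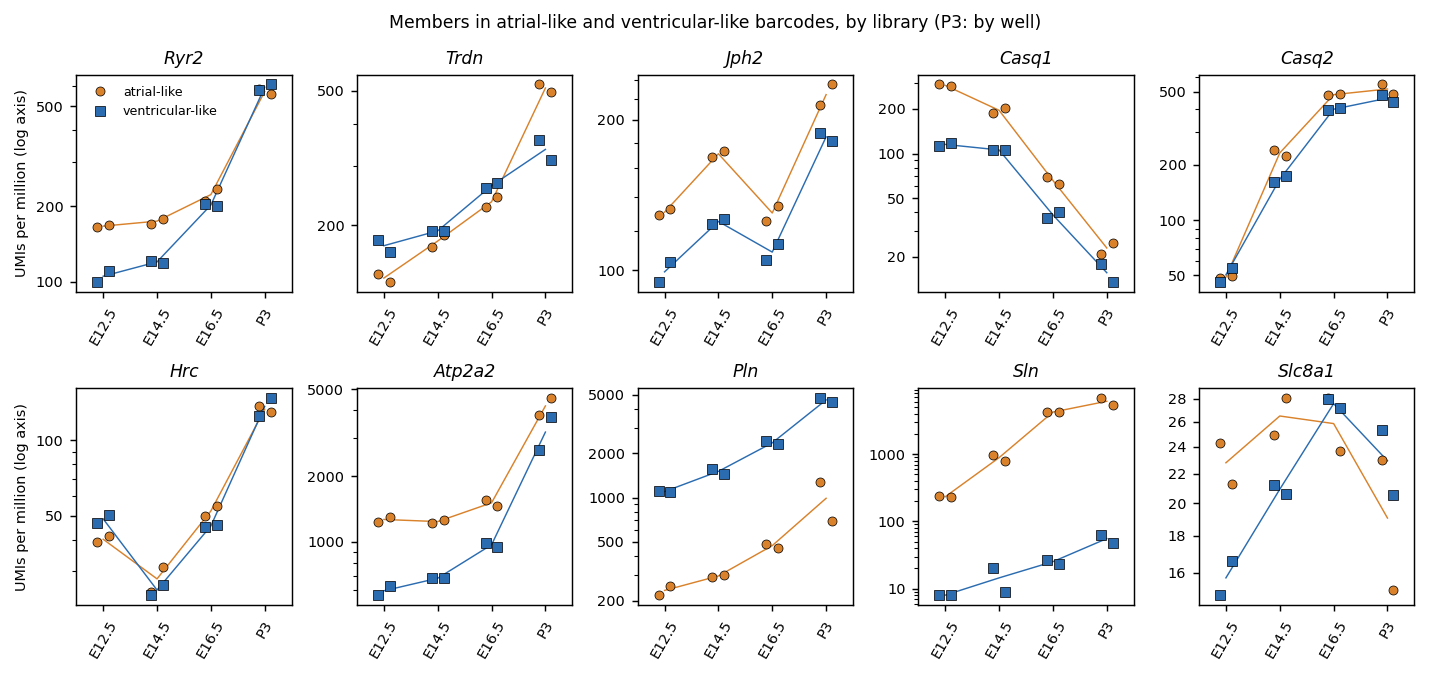
Level of each gene in atrial-like (circles) and ventricular-like (squares) cardiomyocyte barcodes, in CPM on a log axis, for each library at E12.5, E14.5 and E16.5 and each well at P3, with lines through the means. Sln and Pln keep a wide gap in opposite directions at every stage, while the gap of Ryr2 narrows between E14.5 and E16.5.

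Of the 10 members, Sln had the widest chamber difference. In atrial-like barcodes it stood at 238 and 226 CPM (E12.5), 984 and 789 (E14.5), 4224 and 4213 (E16.5), and 6323 (P3). In ventricular-like barcodes it stood at 8.10 and 7.91, 19.9 and 8.97, 27.1 and 23.3, and 59.3 CPM. No ventricular-like value came near an atrial-like one. The difference, atrial minus ventricular, was 4.71 ± 0.23 on the log2 scale at E12.5, 5.75 ± 0.23 at E14.5 and 7.23 ± 0.24 at E16.5 (edgeR adjusted p = 5.5e-12, 2.4e-13 and 8.3e-15). Ventricular-like Sln before birth was 7.18% to 46.8% of the Sln level in near-empty barcodes (at most 50 UMIs), which hold free RNA. Of the atrial marker genes, Nr2f1 in ventricular-like barcodes was 13.5% to 22.4% of its near-empty level, Mybphl 6.73% to 90.7% and Stard10 59.8% to 102%. Ventricular-like Sln was above the level in low-Tnnt2 barcodes in each library, where these had 0.772 and 0.914 CPM (E12.5), 1.81 and 1.67 (E14.5), 12.8 and 10.7 (E16.5), and 29.97 (P3). Whether ventricular-like Sln UMIs came from the cells or from free RNA was not tested, so the fold against the ventricle describes the sums.

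Pln had the opposite pattern. It stood at 216 and 252 CPM (E12.5), 289 and 298 (E14.5), 487 and 457 (E16.5), and 1071 (P3) in atrial-like barcodes, against 1105 and 1095, 1559 and 1460, 2416 and 2303, and 4697 CPM in ventricular-like barcodes. The chambers did not overlap at any stage. The difference, atrial minus ventricular, was -2.39 ± 0.09, -2.53 ± 0.09 and -2.48 ± 0.09 on the log2 scale at E12.5, E14.5 and E16.5 (edgeR adjusted p = 7.2e-14, 2.7e-14 and 1.6e-14). Atrial-like Pln was 28.6% to 41.3% of its near-empty level, where the ventricular Irx4 in the same atrial-like barcodes was 1.80% to 5.81% of its own. The P3 wells differed for atrial-like Pln, at 1282 and 699 CPM.

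Atp2a2 was higher in atrial-like barcodes at every stage. It stood at 1239 and 1294 CPM (E12.5), 1214 and 1263 (E14.5), 1557 and 1462 (E16.5), and 4090 (P3), against 568 and 626, 679 and 683, 988 and 951, and 2928 CPM in ventricular-like barcodes. Both embryonic chambers kept apart, and the gap narrowed as the ventricular level rose. The difference was 0.93 ± 0.08 on the log2 scale at E12.5, 0.70 ± 0.08 at E14.5 and 0.48 ± 0.08 at E16.5 (edgeR adjusted p = 1.2e-08, 7.2e-07 and 4.5e-05). The ventricular-like P3 well of 3730 CPM came close to the atrial-like well of 3815 CPM, and within each well the atrial-like value was the higher.

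Ryr2 had an atrial lead that was called at E12.5 and E14.5 and not at E16.5. Atrial-like barcodes had 165 and 168 CPM (E12.5), 170 and 178 (E14.5), 209 and 235 (E16.5), and 575 (P3), and ventricular-like barcodes had 99.5 and 111, 121 and 119, 203 and 201, and 588 CPM. The chambers were apart at E12.5 and E14.5 and nearly met at E16.5 and P3. In CPM both atrial-like values at E16.5 still lay above both ventricular-like ones. The TMM factors there were 0.959 and 0.992 for atrial-like and 0.865 and 0.886 for ventricular-like sums. This scaling took away the E16.5 lead. The difference was 0.51 ± 0.07 on the log2 scale at E12.5 (edgeR adjusted p = 2.1e-05), 0.37 ± 0.08 at E14.5 (edgeR adjusted p = 0.00095) and -0.02 ± 0.07 at E16.5 (edgeR adjusted p = 0.87). The E14.5 call was lost without either E14.5 library (0.39 and 0.32, edgeR adjusted p = 0.053 and 0.082 without replicates 1 and 2). A stage with 1 library left takes its spread from the other groups.

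Casq1 was higher in atrial-like barcodes while it fell in both chambers. It went from 293 and 284 CPM (E12.5) through 189 and 203 (E14.5) and 69.2 and 62.3 (E16.5) to 22.5 at P3 in atrial-like barcodes. In ventricular-like barcodes it went from 113 and 118 through 105 and 106 and 36.5 and 40.5 to 16.7 CPM. Every embryonic atrial-like value lay above the ventricular-like values of its stage. The difference was 1.17 ± 0.07, 0.72 ± 0.08 and 0.63 ± 0.09 on the log2 scale at the 3 stages (edgeR adjusted p = 2.3e-10, 7.9e-07 and 1.2e-05).

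Casq2 had similar levels in both chambers. Atrial-like barcodes had 48.7 and 49.4 CPM (E12.5), 240 and 224 (E14.5), 479 and 483 (E16.5), and 525 (P3), beside 46.0 and 54.9, 161 and 173, 394 and 407, and 470 CPM in ventricular-like barcodes. The chambers overlapped at E12.5 and were apart, atrial higher, at E14.5 and E16.5. The E14.5 difference of 0.32 ± 0.08 on the log2 scale passed the test (edgeR adjusted p = 0.0057) and was lost without E14.5 replicate 1 (0.19, edgeR adjusted p = 0.41) and with no mitochondrial minimum (edgeR adjusted p = 0.082), and the E16.5 difference of 0.11 ± 0.08 did not pass (edgeR adjusted p = 0.32). At E12.5 it was -0.19 ± 0.09 (edgeR adjusted p = 0.12), and with the library as a block -0.19 ± 0.06 (edgeR adjusted p = 0.015).

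Of the other members, Trdn was lower in atrial-like barcodes at each embryonic stage and higher at P3. It stood at 144 and 136 CPM (E12.5), 173 and 187 (E14.5), 227 and 243 (E16.5), and 514 (P3), against 181 and 167, 193 and 193, 258 and 267, and 347 CPM in ventricular-like barcodes. No stage overlapped, and at P3 both wells (523 and 497 against 359 and 313 CPM) had the order turned. The embryonic difference was -0.47 ± 0.08, -0.27 ± 0.08 and -0.31 ± 0.08 on the log2 scale (edgeR adjusted p = 0.00013, 0.018 and 0.0041). The E14.5 call was lost without either E14.5 library, at -0.23 and -0.34 (edgeR adjusted p = 0.29 and 0.081) without replicates 1 and 2, and with the stricter chamber cut (edgeR adjusted p = 0.054), and the E16.5 call without E16.5 replicate 1 (edgeR adjusted p = 0.0999). At P3 the median mitochondrial share was 13.98% in atrial-like and 23.1% in ventricular-like barcodes, whose part in the P3 differences was not tested.

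Jph2 had 129 and 133, 169 and 174, 126 and 135, and 222 CPM in atrial-like barcodes in order of stage, and 94.7 and 104, 124 and 127, 105 and 113, and 186 CPM in ventricular-like barcodes. Atrial-like values were the higher at each stage without overlap. The differences of 0.24 ± 0.07 at E12.5 and 0.28 ± 0.07 at E14.5 passed (edgeR adjusted p = 0.012 and 0.0055), and 0.10 ± 0.07 at E16.5 did not (edgeR adjusted p = 0.30). The E12.5 call was lost without E12.5 replicate 1, with the study's mitochondrial ceilings and with no filter on low counts (edgeR adjusted p = 0.11, 0.22 and 0.053). The E14.5 call was lost without either E14.5 library (0.27 and 0.26, edgeR adjusted p = 0.17 and 0.13 without replicates 1 and 2) and with no mitochondrial minimum (edgeR adjusted p = 0.075).

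Hrc in atrial-like barcodes had 39.2 and 41.3, 24.9 and 31.1, 49.998 and 54.4, and 134 CPM, and in ventricular-like barcodes 46.8 and 50.2, 24.0 and 26.5, 45.2 and 45.8, and 131 CPM. The E14.5 dip was thus present in both chambers. Only the E12.5 difference of -0.42 ± 0.09 passed (edgeR adjusted p = 0.00073), and it was lost with the study's mitochondrial ceilings (-0.16 ± 0.10, edgeR adjusted p = 0.24). The E14.5 and E16.5 differences were -0.05 ± 0.12 and 0.04 ± 0.09.

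Slc8a1 had 24.3 and 21.3, 24.9 and 28.1, 28.1 and 23.6, and 20.2 CPM in atrial-like and 14.9 and 16.6, 21.2 and 20.6, 28.0 and 27.2, and 24.0 CPM in ventricular-like barcodes. The chambers were apart at E12.5 and E14.5 and overlapped at E16.5. The E12.5 difference of 0.38 ± 0.11 passed (edgeR adjusted p = 0.013) but not without E12.5 replicate 1 (0.21, edgeR adjusted p = 0.36) or with Tnnt2 of at least 3000 CPM (0.22, edgeR adjusted p = 0.24), and without E12.5 replicate 2 it was 0.58. The differences of 0.15 ± 0.13 at E14.5 and -0.23 ± 0.11 at E16.5 did not pass (edgeR adjusted p = 0.41 and 0.11), but the latter passed with no mitochondrial minimum (-0.34 ± 0.11, edgeR adjusted p = 0.022).

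Whether the chamber difference itself changed from E12.5 to E16.5 was tested as an interaction, in which 11.5% of genes were called. Of the members, 2 moved toward the atrium and 4 toward the ventricle, beside 6.77% and 4.75% of all genes. The atrial excess of Sln grew by 2.52 ± 0.29 on the log2 scale (edgeR adjusted p = 5.5e-06). The differences of Ryr2 (-0.53 ± 0.10), Atp2a2 (-0.45 ± 0.11), Casq1 (-0.54 ± 0.11) and Slc8a1 (-0.61 ± 0.15) moved toward the ventricle (edgeR adjusted p = 0.0016, 0.0085, 0.0030 and 0.012), and that of Hrc moved toward the atrium by 0.46 ± 0.12 (edgeR adjusted p = 0.016). For Pln the change was -0.09 ± 0.12 (edgeR adjusted p = 0.73), but it was called in opposite directions with the stricter chamber cut (0.35, edgeR adjusted p = 0.043) and with the study's mitochondrial ceilings (-0.58, edgeR adjusted p = 0.0071). Casq2 was called with the library as a block, at 0.30 ± 0.08 (edgeR adjusted p = 0.0047), against 0.30 ± 0.12 without it (edgeR adjusted p = 0.12). Without E16.5 replicate 1 the Ryr2 and Hrc calls were lost (edgeR adjusted p = 0.062 and 0.080), and without E16.5 replicate 2 those of Atp2a2, Casq1, Slc8a1 and Hrc (edgeR adjusted p = 0.054, 0.085, 0.079 and 0.20). Leaving out E12.5 replicate 1 lost the call of Slc8a1 and added a member toward the atrium. Leaving out E12.5 replicate 2 lost the call of Hrc. With the study's mitochondrial ceilings the calls of Atp2a2, Casq1 and Hrc were lost (edgeR adjusted p = 0.21, 0.060 and 0.48). The Hrc call was also lost with no mitochondrial minimum and without the 5% of barcodes with the most UMIs (edgeR adjusted p = 0.083 and 0.051), and that of Slc8a1 with Tnnt2 of at least 3000 CPM (edgeR adjusted p = 0.17). With thinning only the calls of Sln and Ryr2 held. Of the 6 calls, that of Sln held under every alternative run.

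The UMIs of the brakes per UMI of the pump differed between chambers and stages. The ratios that follow are of UMIs of different genes, so they carry any difference in capture between the genes. That difference does not cancel between chambers or between atrial stages, because the mix of Sln and Pln in the sum changes. In ventricular-like barcodes the summed Pln and Sln UMIs per Atp2a2 UMI were 1.96 and 1.76 (E12.5), 2.32 and 2.15 (E14.5), 2.47 and 2.45 (E16.5), and 1.62 (P3). In atrial-like barcodes they were 0.367 and 0.370, 1.05 and 0.861, 3.03 and 3.19, and 1.81. In UMIs, the atrial ratio was below the ventricular one at E12.5 and E14.5 and above it at E16.5. Within each P3 well it was also above (2.14 against 1.84 and 1.32 against 1.21). At E16.5 and P3 this sets mostly Sln UMIs against nearly all Pln UMIs. The order therefore depends on how each gene was captured, and no order of the brakes is read from it. Sln made up 52.4% and 47.3% of the atrial-like sum at E12.5, 77.3% and 72.6% (E14.5), 89.7% and 90.2% (E16.5), and 85.5% (P3), and 0.611% to 1.32% of the ventricular-like sum over all libraries and wells. These ratios have no test of their own. In the same chambers, Casq2 made up 14.3% and 14.8% of atrial-like and 29.0% and 31.8% of ventricular-like calsequestrin UMIs at E12.5, and 95.9% and 96.6% at P3.

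**Figure D3:**
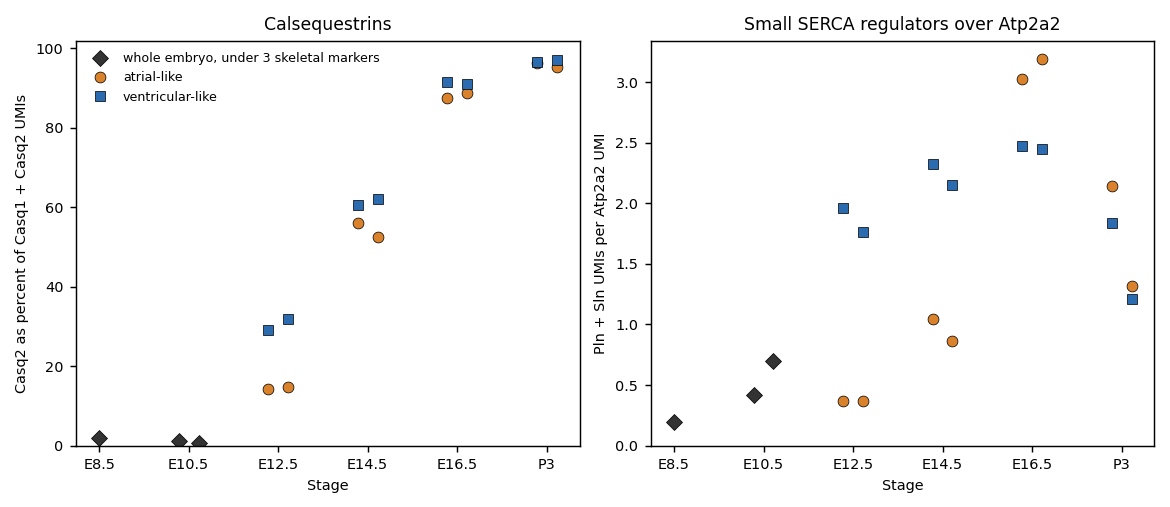
Left, Casq2 as a percent of Casq1 plus Casq2 UMIs, and right, Pln plus Sln UMIs per Atp2a2 UMI, by stage, for whole-embryo libraries without skeletal barcodes (diamonds) and for atrial-like (circles) and ventricular-like (squares) sums of each later library or P3 well. The calsequestrin share climbs with stage in both chambers. The atrial ratio of UMIs climbs from 0.367 and 0.370 (E12.5) to 3.03 and 3.19 (E16.5), while its sum shifts toward Sln.

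The brakes were also counted in single barcodes, from which doublets were not removed. With each barcode thinned to 2000 UMIs, a Sln UMI was found in 24.8% and 26.4% of atrial-like barcodes at E12.5, 56.7% and 48.7% (E14.5), 91.1% and 88.7% (E16.5), and 98.7% (P3). In ventricular-like barcodes it was found in 1.14% to 1.81% over E12.5 and E14.5, above the 0.137% to 0.288% of low-Tnnt2 barcodes there. At E16.5 and P3 the ventricular shares (2.43% and 1.94%, and 5.68%) lay below those of low-Tnnt2 barcodes (3.00% and 2.29%, and 6.17%). The order of these shares at the last 2 stages goes against that of the CPM given above, so none is read from them. A Pln UMI was found in 24.0% and 24.0% of atrial-like barcodes at E12.5, 34.3% and 33.3% (E14.5), 61.4% and 55.6% (E16.5), and 79.9% (P3), beside 5.03% to 11.6% of low-Tnnt2 barcodes before birth and 23.4% at P3. Atrial-like barcodes with both rose from 2.85% and 4.05% (E12.5) through 16.7% and 14% (E14.5) and 54.3% and 49.3% (E16.5) to 78.7% at P3. Low-Tnnt2 barcodes with both were at most 0.383% before birth and 1.30% at P3. In ventricular-like barcodes Pln was found in 82.4% and 82.6% (E12.5) and in 99.3% at P3.

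**Figure D4:**
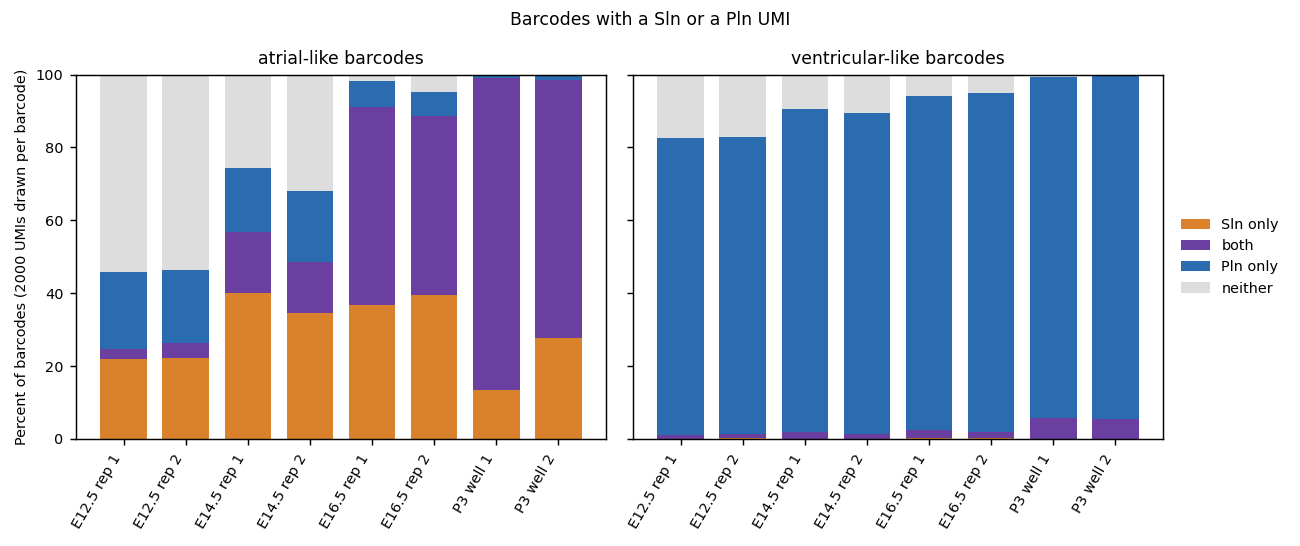
Stacked bars of the percent of atrial-like (left) and ventricular-like (right) barcodes with a UMI of Sln only, both genes, Pln only or neither, after each barcode was thinned to 2000 UMIs, for each library and P3 well. The share with both in atrial-like barcodes grows from 2.85% in E12.5 replicate 1 to 85.8% and 70.7% in the P3 wells, while ventricular-like bars are mostly Pln only.

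All 10 members were higher in cardiomyocyte barcodes than in low-Tnnt2 barcodes over the 3 tested heart stages, in a comparison that called 85.6% of 15639 genes, 41.6% higher and 43.9% lower. The folds were 104 for Trdn, 69.6 for Ryr2, 59.5 for Casq2, 52.4 for Pln, 42.1 for Sln, 40.2 for Hrc, 26.6 for Jph2, 25.7 for Slc8a1, 20.5 for Casq1 and 17.3 for Atp2a2. Trdn in low-Tnnt2 barcodes was 0.832% to 1.36% of its cardiomyocyte level in these 6 libraries, and Tnni3, which should be absent there, was 1.64% to 2.71%. Atp2a2 was 5.65% to 7.62% and Casq1 4.28% to 8.77%, while Tnnc1, another troponin gene of cardiomyocytes, was 2.50% to 4.23%. The Casq1 and Tnnc1 shares lay close together at E12.5, at 4.53% and 4.28% against 3.99% and 4.23%.

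Classes of low-Tnnt2 barcodes, named by their markers, differed for Atp2a2 and Casq1 in the early embryos. Atp2a2 lay at 59.6 to 62.0 CPM in endothelial-like and 61.6 and 60.7 CPM in fibroblast and mesenchyme-like barcodes of the E10.5 embryos, and at 17.0 and 20.1 CPM in erythroid-like barcodes. Cardiomyocyte barcodes there had 536 and 461 CPM. SERCA2 is the housekeeping pump of many tissues. Casq1 lay at 10.2 CPM in endothelial-like barcodes at E8.5 and at 10.2 and 9.71 CPM (E10.5), and at 0 to 0.948 CPM in the other classes of those libraries. Tnni3 in the same endothelial-like barcodes was 3.02, 2.64 and 0.920 CPM.

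At P3, 251 smooth muscle and pericyte-like barcodes stood apart from the other low-Tnnt2 classes for Casq2, Hrc, Slc8a1 and Jph2. Casq2 lay at 134 CPM in them and at 9.32 to 13.0 CPM in endothelial-like, fibroblast and mesenchyme-like and macrophage-like barcodes. Hrc lay at 26.3 against 1.86 to 3.02 CPM, and Slc8a1 at 7.21 against 1.47 to 2.39 CPM. Jph2 lay at 32.7 against 6.19 to 17.9 CPM. Tnni3 lay at 175 against 140 to 194 CPM and Actc1 at 330 against 268 to 331 CPM in the same classes, and the part of free RNA in these values was not tested. P3 is 1 matrix, so these are values with no test, and smooth muscle cells have an SR of their own.

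**Figure D5:**
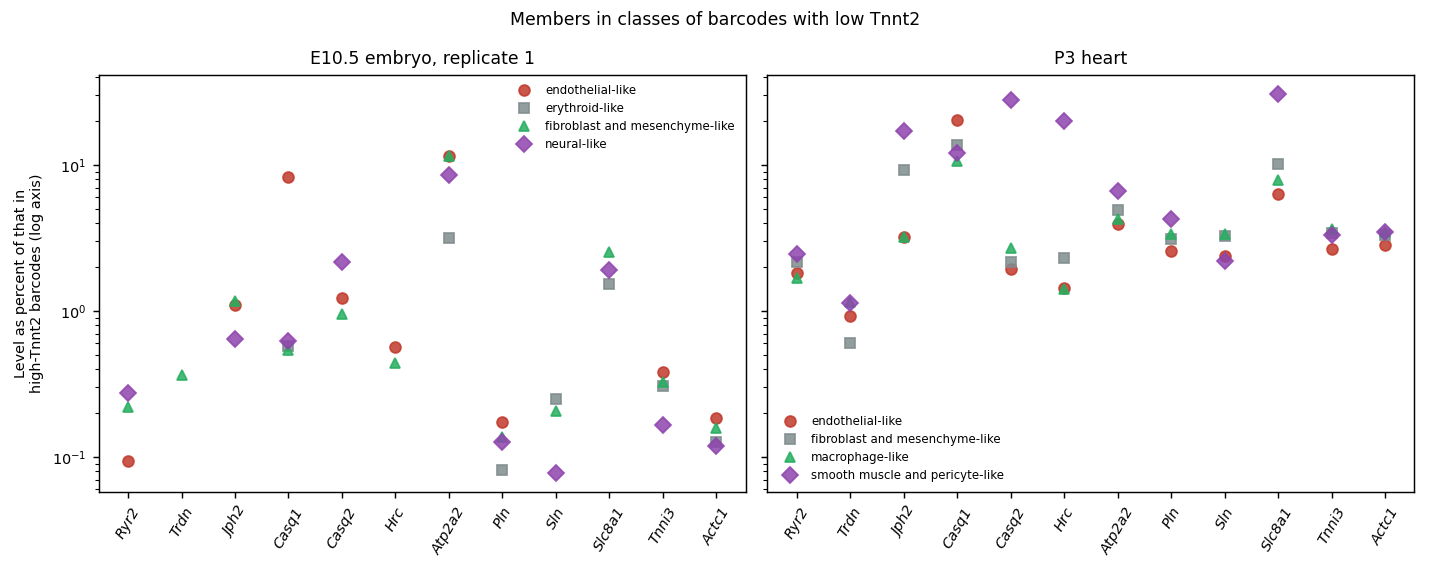
Level of each gene in classes of low-Tnnt2 barcodes as a percent of its level in cardiomyocyte barcodes (log axis), in E10.5 replicate 1 (left) and P3 (right), with Tnni3 and Actc1 as a gauge of free RNA. Classes at 0 are not drawn. Casq1 stands out in endothelial-like barcodes at E10.5, and Casq2, Hrc and Slc8a1 in smooth muscle and pericyte-like barcodes at P3.

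Conduction tissue was approached through atrial-like barcodes with a UMI of at least 2 of the genes Hcn4, Tbx3, Shox2 and Isl1, against atrial-like barcodes with none. These were 10 to 36 against 109 to 250 barcodes per library, and 11.8% of 9191 genes were called, 4.87% higher and 6.91% lower. Casq2 was the sole member called, and it was lower. It had 12.7 and 38.5 CPM (E12.5), 224 and 172 (E14.5), and 336 and 534 (E16.5), against 63.2 and 58.6, 234 and 243, and 486 and 484 CPM. The marker-bearing value was lower in 5 of 6 libraries and higher in E16.5 replicate 2. Over the 3 stages the difference was -0.70 ± 0.14 on the log2 scale (edgeR adjusted p = 0.0011). With each library left out in turn it ranged from -1.12 (without E12.5 replicate 2) to -0.53. It was not called with barcodes thinned to 2000 UMIs, at -0.29 ± 0.27 (edgeR adjusted p = 0.61). Median depths of marker-bearing barcodes were 18428 and 15568 UMIs (E12.5), 13219.5 and 8969.5 (E14.5), and 19066 and 15946 (E16.5). Barcodes with no marker had 23624 and 22993, 17536 and 13130, and 19191 and 13168 UMIs. The 12.7 CPM of E12.5 replicate 1 came from a sum of 473277 UMIs.

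A wider list of 48 calcium genes gives the setting, of which 46 were in the files and 45 were tested between stages. Of these 18 rose and 10 fell from E10.5 to E12.5, beside 23.0% and 19.9% of all genes, and 21 rose and 9 fell without the skeletal barcodes, beside 22.2% and 18.3%. To E14.5, 12 rose and 13 fell (18.0% and 15.6% of all genes), and to E16.5, 14 rose and 8 fell (19.6% and 18.9%). The skeletal isoforms Ryr1 and Atp2a1 and the T-tubule gene Bin1 fell most from E10.5 to E12.5, by 5.87 ± 0.53, 3.84 ± 0.30 and 5.28 ± 0.21 on the log2 scale with the skeletal barcodes included. Bin1 was lower in cardiomyocyte than in low-Tnnt2 barcodes over the tested heart stages, by 4.74 ± 0.06. Ryr1 stood at 7.05 and 5.92 CPM (E10.5) and at 0.0225 and 0.163 CPM (E12.5), and without the skeletal barcodes at 1.09 and 0.735 CPM (E10.5). The caveolin gene Cav3 rose by 2.27 ± 0.11 over the same step. From E14.5 to E16.5 S100a1, whose product binds RYR2 and SERCA2, rose by 1.18 ± 0.09, and the plasma membrane pump gene Atp2b4 fell by 1.07 ± 0.09.

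Between chambers, 8 of 42 tested genes of the wider list were higher and 11 lower in atrial-like barcodes at E12.5, beside 14.7% and 17.2% of all genes. They were 12 and 11 for E14.5 (15.7% and 16.3% of all genes) and 13 and 12 for E16.5 (16.2% and 16.1%). A ryanodine receptor paralogue that is no member, Ryr3, was among the widest. It stood at 30.2 and 28.8 CPM (E12.5), 54.4 and 49.8 (E14.5), 32.5 and 38.6 (E16.5), and 46.8 (P3) in atrial-like barcodes, against 2.16 and 3.67, 4.19 and 3.59, 0.836 and 1.14, and 0.596 CPM in ventricular-like barcodes. The chambers were far apart at every stage. The difference was 3.16 ± 0.17 on the log2 scale at E12.5 and 5.03 ± 0.20 at E16.5 (edgeR adjusted p = 2.3e-11 and 8.2e-14), and it grew by 1.87 ± 0.27 (edgeR adjusted p = 7.1e-05). S100a1 moved the other way, with 133 and 124 against 147 and 141 CPM (E12.5) and 165 and 155 against 418 and 402 CPM (E16.5), for a difference of -1.51 ± 0.08 at E16.5 (edgeR adjusted p = 1.3e-11). The uniporter gene Mcu was higher in atrial-like barcodes by 1.10 ± 0.13 at E12.5 and 1.09 ± 0.14 at E16.5.

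Likeness of pattern was measured by Pearson's r of log2 CPM over the 12 embryonic chamber sums, among 4788 genes, as a description. The genes most like each member were Cox6a2 for Ryr2 (r = 0.978), Aldh1b1 for Atp2a2 (0.989), Ears2 for Pln (0.986), Nudt4 for Sln (0.990), Arl2bp for Casq1 (0.990), Rcan2 for Casq2 (0.989), Fem1a for Slc8a1 (0.952), Cav3 for Trdn (0.972), 4921524J17Rik for Hrc (0.889) and Smim10l1 for Jph2 (0.983). Hrc had the least close match. Among the members, Atp2a2 and Sln were the most alike (r = 0.921) and Casq1 and Trdn the most opposed (r = -0.946). The sums share libraries and depth in pairs, so these values carry no p.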

How the data were processed

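Single-cell 3′ RNA-seq (10x Genomics) of whole embryos and hearts was analysed from the count matrices the authors deposited, which hold whole UMI counts per gene and barcode, not normalized. Per the labels' processing notes the tools were Cell Ranger 2.1.1 and Seurat 3.1.1 on mm10. The labels name 3′ v2 chemistry and trypsin, while the study's methods name v3 and collagenase. Embryonic matrices list all barcodes, and the P3 matrix is filtered. A matrix of E8.5 replicate 1 was not analysed here.

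UMIs were summed per library and class of barcodes, since barcodes are not replicates. Sums were tested with edgeR 4.0.16 in R 4.3.3 (TMM, filterByExpr, quasi-likelihood test, Benjamini-Hochberg adjustment over all genes tested, threshold 0.05). The stage fit held 8 libraries, and the chamber fit held atrial-like and ventricular-like sums of 6 libraries. E8.5 and P3 entered no test, and their intervals are exact Poisson intervals at 95%, for counting error only. The chamber was atrial-like where log2 of (Myl2 CPM + 10) over (Myl7 CPM + 10) was at most -3. Low-Tnnt2 barcodes had under 500 CPM of Tnnt2 and met the same filters. Classes among these needed at least 5 UMIs of at least 3 markers of the class, 75% or more of all the class marker UMIs in the barcode, and at least 50 barcodes. Doublets were not called; leaving out the 5% of barcodes with the most UMIs was an alternative. Thinned values used 2000 UMIs drawn from each barcode, which leaves out no barcode. The scripts were tested on simulated data.

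Both chambers of a library share its animals, so the library pairs them. The chamber, interaction, cardiomyocyte and conduction tests above left this pairing out, and the library as a block was an alternative. The deviations of atrial-like and ventricular-like sums correlated at 0.306, 0.0425 and 0.166 over 9399 genes at E12.5, E14.5 and E16.5. Between stages a replicate number is only a name (r from -0.0891 to 0.180). Alternatives were the replicate block, RLE factors, DESeq2 1.42.0, no filter on low counts, at least 5000 UMIs, no mitochondrial minimum, the study's mitochondrial ceilings, mitochondrial genes left out, Tnnt2 at 3000 CPM, a stricter chamber cut, thinning, and each library left out. Leaving out skeletal barcodes and the comparison on 4 conduction markers were chosen after seeing the data. The genes, lists and tests were chosen with earlier results of these data known. All 10 genes are named in every comparison. Of the wider list the genes with the 3 largest called folds in each direction could be named, and for likeness the genes with the highest r among those with a mean of at least 20 CPM. Promoters come from RefSeq (GRCm38.p6).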

Additional observations from a re-analysis of the deposited data

Results flagged for a closer look

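For 6 genes the difference between atrial-like and ventricular-like barcodes itself changed from E12.5 to E16.5 by the interaction test over 6 libraries, and these are listed for that reason. With the study's mitochondrial ceilings the calls of Atp2a2, Casq1 and Hrc were lost (edgeR adjusted p = 0.21, 0.060 and 0.48), and that of Hrc also with no mitochondrial minimum and without the 5% of barcodes with the most UMIs (edgeR adjusted p = 0.083 and 0.051). The change, on the log2 scale and written as atrial minus ventricular at E16.5 less the same at E12.5, was 2.52 for Sln and 0.46 for Hrc. It was -0.53 for Ryr2, -0.45 for Atp2a2, -0.54 for Casq1 and -0.61 for Slc8a1. Ryr2 rose in ventricular-like barcodes from 99.5 and 111 to 203 and 201 CPM while atrial-like barcodes went from 165 and 168 to 209 and 235 CPM. Slc8a1 went from 14.9 and 16.6 to 28.0 and 27.2 CPM in ventricular-like barcodes and from 24.3 and 21.3 to 28.1 and 23.6 CPM in atrial-like barcodes. The share of mitochondrial UMIs moved as well, from medians of 7.25% and 7.07% to 8.001% and 8.87% in atrial-like and from 6.41% and 6.91% to 10.9% and 11.3% in ventricular-like barcodes, and its part in the changes was not tested. No group held 4 or more libraries, so single libraries were not tested as outliers.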

How the results depend on the processing

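Over all alternatives, 1273 of 1357 values for single genes kept their direction and side of the threshold, 55 lost the call, 7 gained it and 22 changed sign, and 306 of 340 counts stayed within 1.5 times. The values for single genes cover 71 results, chosen mainly because the main fit called them. They are every stage difference, the other differences called there, Ryr2 between chambers at E16.5 and the interaction of Pln. Calls gained by any other difference are not among the 7. Thinning each barcode to 2000 UMIs by construction leaves fewer counts. It called 1937 genes from E10.5 to E12.5, 1731 to E14.5 and 2592 to E16.5, 973, 1114 and 1306 between chambers at E12.5, E14.5 and E16.5 with 5 and 4 members at E12.5 and E14.5, 285 genes and 2 members in the interaction, and 325 genes and 0 members in the conduction comparison. Tnnt2 at 3000 CPM left 3 members and 1213 genes from E10.5 to E12.5. In the conduction comparison no filter called 3 members and no mitochondrial minimum 1766 genes. With each library left out in turn, 2781 to 5049 genes were called from E12.5 to E14.5, 3552 to 6205 to E16.5, 2904 to 4240, 2002 to 4696 and 2622 to 4750 between chambers (4 to 8 members at E14.5), 783 to 1328 genes and 2 to 6 members in the interaction, and 342 to 1027 genes and 1 to 3 members in the conduction comparison.

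Signs changed as follows, and the cause was not tested. From E10.5 to E12.5, Ryr2 was -0.13 and Casq1 -0.32 with Tnnt2 at 3000 CPM, Casq1 -0.093 with thinning, Sln 2.22 without skeletal barcodes, and Slc8a1 -0.11 with the ceilings, -0.18 with thinning, -0.27 with Tnnt2 at 3000 CPM and -0.16 to 0.66 with each library left out. Slc8a1 was called there without E10.5 replicate 2 (edgeR adjusted p = 0.022). From E14.5 to E16.5 Jph2 was 0.020 with no mitochondrial minimum, 0.050 with the ceilings, 0.0093 without the deepest barcodes, and -0.050 to 0.041 with each library left out. Between chambers Slc8a1 was -0.028 at E12.5 with thinning, and Ryr2 at E16.5 was 0.010 with the ceilings, 0.0093 with Tnnt2 at 3000 CPM and -0.14 to 0.056 with each library left out. The interaction of Pln was 0.080 with no mitochondrial minimum, 0.35 with the stricter cut (edgeR adjusted p = 0.043) and -0.58 with the ceilings (edgeR adjusted p = 0.0071).

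With the replicate block, 9, 7 and 9 members were called between stages, 10, 8 and 5 between chambers and 7 in the interaction, beside 43.1%, 36.0%, 40.7%, 36.3%, 35.4%, 35.9% and 17.1% of all genes. The block changed no other call than those of Casq2 given above.

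The planned comparison on 9 conduction markers was not run, since it left as few as 3 barcodes to compare with, and the 4 markers were chosen after seeing the data. Depth limits values that rest on small sums, such as the E10.5 sums without skeletal barcodes (2750718 and 2721542 UMIs), the atrial-like sum of E14.5 replicate 2 (2028418 UMIs) and the conduction-marker sums before birth (127952 to 649618 UMIs). Each tested group has 2 libraries, and E8.5 and P3 have no replicate check.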

Other observations

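The same Myl2 to Myl7 cut was applied to the whole-embryo libraries with skeletal barcodes left out, where 25.5% to 43.6% of those barcodes lay within 2 units of the cut. Pln stood at 144 CPM in the barcodes above the cut and at 30.9 CPM in those below it at E8.5. At E10.5 it stood at 486 and 501 CPM above the cut and at 58.6 and 177 CPM below it. Pln was the higher above the cut in each of the 3 libraries. Atp2a2 had no such order, with 444 against 316 CPM at E8.5 and 519 and 477 against 635 and 524 CPM (E10.5). Both genes have a chamber difference in the later hearts, and none was tested in the embryos.

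At E16.5 and P3, Casq1 was higher in atrial-like barcodes with at least 2 of the 4 conduction markers than in those with none. With the markers it stood at 97.2 and 242 CPM (E12.5), 182 and 281 (E14.5), 224 and 163 (E16.5), and 103 (P3). Atrial-like barcodes without these markers had 330 and 314, 176 and 199, 48.6 and 52.1, and 19.9 CPM. The marker-bearing value was the lower in both E12.5 libraries and the higher in both E16.5 libraries, with counting intervals of 170 to 290 and 108 to 235 CPM against 42.3 to 55.6 and 44.7 to 60.3 CPM at E16.5. Averaged over the stages the difference was 0.27 ± 0.16 on the log2 scale (edgeR adjusted p = 0.31), and its change with stage was not tested. The E16.5 values rest on 58 and 28 Casq1 UMIs in 13 and 12 barcodes, and the P3 value on 22 barcodes.

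Barcodes that met the Tnnt2 threshold but had under 1% mitochondrial UMIs were left out by the rule, and they had another mix of the members. At E12.5, E14.5 and E16.5 their Pln level was 0.957 to 1.34 times that of cardiomyocyte barcodes in the same library, while Atp2a2 was 0.0291 to 0.0539 and Ryr2 0.0349 to 0.0580 times. Casq2 was 0.0574 to 0.0989 and Trdn 0.443 to 0.571 times. Sln was 0.514 and 1.22 times the cardiomyocyte level (E12.5), 1.81 and 3.47 times (E14.5) and 5.65 and 5.25 times (E16.5), and 1.17 times at P3. Its E12.5 libraries thus stood on either side of the cardiomyocyte level. Their median depth was 4202 to 5283 UMIs, against 13940 to 25403 in cardiomyocyte barcodes. The source of these barcodes was not tested.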
